A study of Mus musculus with 22 samples.

Results

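Activity-regulated genes were followed in the hippocampus (HIP) and entorhinal cortex (EC) of trisomic Ts66Yah mice and of wild-type (wt) littermates. The set had 32 members out of the 55385 genes of the count table. The members were taken by gene symbol from a written list of genes that neurons switch on within minutes to hours of firing, and each symbol was matched to 1 Ensembl identifier through the GENCODE annotation of GRCm38. The rule itself used no expression value, but the list was chosen with earlier results of these data known. No member lay on mouse chromosome 16, the chromosome that supplies the extra segment of Ts66Yah, so no member was itself triplicated.

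Firing lets calcium into the neuron and activates kinases such as ERK and CaMK, which phosphorylate factors already sitting on the DNA, among them CREB and SRF. The first genes to respond are the immediate-early transcription factors of the FOS, JUN, EGR, NR4A and NPAS4 families. These are followed by effectors that act at synapses or are secreted, such as ARC and BDNF, and by phosphatases of the DUSP family that shut the kinases off again. In the hippocampus and cortex many of these transcripts, though not all, have low baseline levels and rise briefly when an animal explores or learns. Such transcripts are widely read as a trace of recent neuronal firing.

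The series held 22 libraries from 11 adult male mice, and each mouse gave 1 HIP and 1 EC library. The 5 wt mice were littermate controls with no extra chromosome. The 6 Ts66Yah mice carried a freely segregating minichromosome with an additional copy of the distal part of Mmu16, from which the centromeric part of Mmu17 present in the older Ts65Dn line had been removed by genome editing. All mice were on the mixed F1B6C3B background, and the Ts66Yah line descends from 1 mosaic male founder. The trisomy therefore cannot be told apart from any other change carried on the minichromosome of that founder. Bulk tissue was sequenced, and in such samples fewer cells of a type and less RNA per cell cannot be told apart.

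Libraries held between 25900479 and 50105778 counts assigned to genes. App, a gene of the added Mmu16 copy, served as a check of the genotype labels. It was at 1964 to 2235 CPM in wt HIP and 2928 to 3196 CPM in Ts66Yah HIP, and at 2292 to 2585 and 3421 to 3846 CPM in EC. Dyrk1a, of the same copy, also separated the genotypes in both regions. Sod1, of that copy too, separated them in HIP but overlapped in EC, at 97.0 to 149 CPM in wt and 140 to 178 CPM in Ts66Yah. Levels are given as CPM, the counts of a gene per megaread of its library after TMM scaling, and Egr2 in HIP was the lowest member, at 0.227 CPM in 1 library. Dentate granule cell markers and CA pyramidal cell markers were each higher in HIP for 4 of 5 genes, and cortex markers were higher in EC for 4 of 6 genes, as the tissue labels state. Choroid plexus markers varied widely among HIP libraries, with summed levels of 110 to 3296 CPM in wt and 762 to 2822 CPM in Ts66Yah. In EC they stayed between 9.91 and 41.7 CPM. Striatal markers summed to 139 to 277 CPM in EC, against 57.6 to 79.1 CPM in HIP.

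The promoters of the members were read from RefSeq windows of GRCm38.p6 that cover 250 bases before and 50 bases after each transcript start. Windows existed for 23 of the 32 members. None existed for Egr1, Egr3, Arc, Dusp4, Ier2, Nptx2, Trib1, Vgf and Nrn1, so nothing can be said of their motifs. Sites farther from a start were not read for any member. The CRE core, the letters TGACG that form one arm of the cAMP response element bound by CREB, was present on either strand in 16 of the 23 members (69.6%) and in 6228 of 27025 genes (23%). The full element, in which TGACG is followed directly by TCA, was found in Btg2 and Dusp1 (2 of 23, 8.7%, against 2.03% of all genes), and each full element also counts as a CRE core. The CArG box, to which SRF binds, was found in Egr2 and Dusp5 (8.7% against 1.81% of genes). The EGR site, GCG followed by G or T and then GGGCG, was found in Klf4, Fosl2, Fosb and Nr4a1 (17.4% against 3.93%). The letters TATAAA were found in 6 members (26.1% against 15.7%). These matches are a description of letters and not of binding.

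The 150 bases before the RefSeq start are shown for 4 members that moved closely together across libraries in the results that follow. Each of the 4 windows also held several motif matches. Fosb moved as closely, but its window, with a CRE core match and an EGR site, is not shown. The choice of these 4 therefore does not bear on whether motifs go with movement across libraries. Capitals mark the CRE core on either strand (written TGACG or CGTCA), the full element, the CArG box and TATAAA. The Fos window lies at chr12:85473740-85473889 on the + strand and holds a pair of CRE core matches and a TATAAA. The Nr4a1 window lies at chr15:101266696-101266845 on the + strand. The Dusp1 window, with the full element, lies at chr17:26508473-26508622 on the - strand. The Egr2 window, with a CArG box between its CRE core matches, lies at chr10:67537719-67537868 on the + strand. Egr2 has 5 RefSeq windows, and the one shown was picked because it held several motif matches. The Nr4a1, Dusp1 and Egr2 windows precede starts that lie inside longer GENCODE gene models.
Fos: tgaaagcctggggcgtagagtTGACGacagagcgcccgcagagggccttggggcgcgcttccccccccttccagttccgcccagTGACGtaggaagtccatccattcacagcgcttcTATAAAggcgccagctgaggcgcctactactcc
Nr4a1: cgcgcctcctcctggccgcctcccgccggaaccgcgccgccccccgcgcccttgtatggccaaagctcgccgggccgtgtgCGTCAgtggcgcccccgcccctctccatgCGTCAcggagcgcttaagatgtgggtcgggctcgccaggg
Dusp1: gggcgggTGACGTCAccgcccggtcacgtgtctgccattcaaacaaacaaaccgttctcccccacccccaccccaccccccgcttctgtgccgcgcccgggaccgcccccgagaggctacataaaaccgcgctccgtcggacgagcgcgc
Egr2: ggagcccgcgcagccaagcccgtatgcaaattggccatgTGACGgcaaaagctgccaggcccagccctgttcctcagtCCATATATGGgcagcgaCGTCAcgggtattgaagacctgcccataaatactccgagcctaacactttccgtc

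All 32 members passed the filter on low counts in both regions. Levels were compared between genes per kilobase of exon. Nrn1, a membrane-anchored protein that supports neurite growth, had the highest mean level in both regions (63.4 CPM per kb in HIP and 69.2 in EC). Arc, the cytoskeletal protein that removes AMPA receptors from synapses, reached 44.8 CPM per kb in HIP and 46.1 in EC, and Vgf, the precursor of secreted neuropeptides, reached 39.3 and 63.1. At the other end stood Egr2 in HIP, at 0.593 CPM per kb, and Klf4, a zinc finger transcription factor, in EC, at 1.17. Fos itself ranked 23 of 32 in HIP and 14 of 32 in EC.

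The spread of single members among mice of one genotype was large. Fos encodes a subunit of the AP-1 transcription factor. In wt HIP it was at 6.36, 5.34, 6.66, 4.76 and 15.4 CPM in replicates 1 to 5, and in Ts66Yah HIP it ran from 3.35 through a median of 12.5 to 17.2 CPM. In EC Fos was at 12.7, 12.9, 12.8, 5.41 and 24.2 CPM in the wt mice and at 53.6, 18.1, 7.17, 7.04, 76.3 and 60.1 CPM in Ts66Yah replicates 1 to 6. The Ts66Yah EC libraries thus lay on either side of a gap between 18.1 and 53.6 CPM, with 3 libraries above all wt libraries and 2 within the lower part of the wt range. The highest Fos level in that group was 10.8-fold the lowest.

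Egr1, a zinc finger factor used as a reporter of neuronal activity, was at 78.5, 72.2, 99, 64.2 and 137 CPM in wt HIP, and its Ts66Yah HIP libraries had a minimum of 68.7, a median of 108 and a maximum of 140 CPM. In EC the wt mice had 134, 145, 138, 81.5 and 199 CPM, and Ts66Yah replicates 1 to 6 had 301, 140, 96.1, 90.8, 415 and 366 CPM. The order of the mice in EC was close to that for Fos, with Ts66Yah replicates 1, 5 and 6 high and 3 and 4 low. Egr2, a relative of Egr1 with a much lower baseline, was at 0.413, 0.637, 0.78, 0.227 and 3.48 CPM in wt HIP and between 0.823 and 5.05 CPM (median 2.81) in Ts66Yah HIP. In wt EC Egr2 was at 4.04, 2.81, 3.91, 1.69 and 10.1 CPM, and in Ts66Yah EC between 1.60 and 27.6 CPM with a median of 12.0. Replicate 5 was the highest wt mouse for Egr2 in both regions.

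Npas4, a factor induced by calcium entry that acts on inhibitory synapses, was at 5.81, 5.66, 9.38, 9.55 and 18.4 CPM in wt HIP and at 5.71 to 15.5 CPM (median 11.5) in Ts66Yah HIP. In EC it was at 7.86, 8.69, 13.2, 10.1 and 38 CPM in wt and at 6.63 to 43.3 CPM (median 28.8) in Ts66Yah. A single wt mouse, replicate 5, had the highest wt level in both regions. Nr4a1, an orphan nuclear receptor, was at 49.8, 45.9, 51.9, 36.8 and 79.7 CPM in wt HIP, at 40.6 to 88.1 CPM (median 62.5) in Ts66Yah HIP, at 52.4, 69.3, 53.9, 20.4 and 86.4 CPM in wt EC and at 29.4 to 210 CPM (median 78.2) in Ts66Yah EC. Fosb, whose long-lived splice form accumulates with repeated stimulation, was at 6.12, 5.73, 6.2, 7.10 and 8.77 CPM in wt HIP and at 10.5, 9.76, 11.1, 10.9 and 15.1 CPM in wt EC. Its Ts66Yah libraries ran from 3.90 to 7.95 CPM in HIP (median 6.71) and from 6.57 to 22.3 CPM in EC (median 13.6). Gene-level counts do not separate the Fosb, Homer1 or Bdnf splice forms.

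Among the effectors, Arc was at 83.2, 86.2, 135, 72.4 and 176 CPM in wt HIP and at 75.2 to 240 CPM (median 160) in Ts66Yah HIP. In EC it was at 53.1, 90.5, 80.9, 17.5 and 148 CPM in wt and at 29.8 to 442 CPM (median 153) in Ts66Yah. With a ratio of 14.8 between its highest and lowest Ts66Yah EC library, Arc was among the most variable members. Bdnf, the neurotrophin that signals through TrkB, was steadier, at 44.7, 60.7, 52.4, 61.4 and 60.5 CPM in wt HIP, 38.9 to 78.8 CPM (median 59.1) in Ts66Yah HIP, 29.3, 37.3, 41.9, 67.0 and 36.7 CPM in wt EC and 30.2 to 60.9 CPM (median 49.7) in Ts66Yah EC. Ptgs2, the inducible cyclooxygenase, was at 28.1, 36.5, 30.0, 39.7 and 37.7 CPM in wt HIP and at 35.1 to 58.5 CPM (median 44.3) in Ts66Yah HIP. In EC Ptgs2 was at 15.4, 13.7, 21.8, 29.0 and 28.1 CPM in wt and at 13.4 to 36.2 CPM (median 26.2) in Ts66Yah. HIP was above EC for Ptgs2 in all 11 mice, while the genotypes overlapped within each region.

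The remaining 15 members are given by their range over the 22 libraries. Nrn1 (120 to 187 CPM) had the narrowest range for its level, with a ratio of highest to lowest library of at most 1.56 within a group, and Klf4 (2.17 to 4.69 CPM) one of at most 1.78. Egr4, a further factor of the EGR family, varied most, from 1.84 to 28.3 CPM. Among the transcription factors Egr3 ran from 70.6 to 184 CPM and Fosl2, an AP-1 subunit also called FRA2, from 19.7 to 61.8 CPM. The effectors Homer1 (100 to 284 CPM), Vgf (86.3 to 269 CPM), Nptx2 (17.5 to 98.6 CPM) and Inhba (5.08 to 19.8 CPM) had their highest library in EC. Of the feedback regulators, Dusp6 ran from 33.5 to 116 CPM and Trib1 from 6.95 to 35.5 CPM. The early response genes Ier2 (2.51 to 16.9 CPM), Ier5 (25.6 to 67.4 CPM) and Btg2 (10.8 to 49.6 CPM) also peaked in EC libraries, and Gadd45b, a relative of Gadd45g, peaked in HIP at 13.6 CPM and had its minimum of 5.49 CPM in EC.

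**Figure D1:**
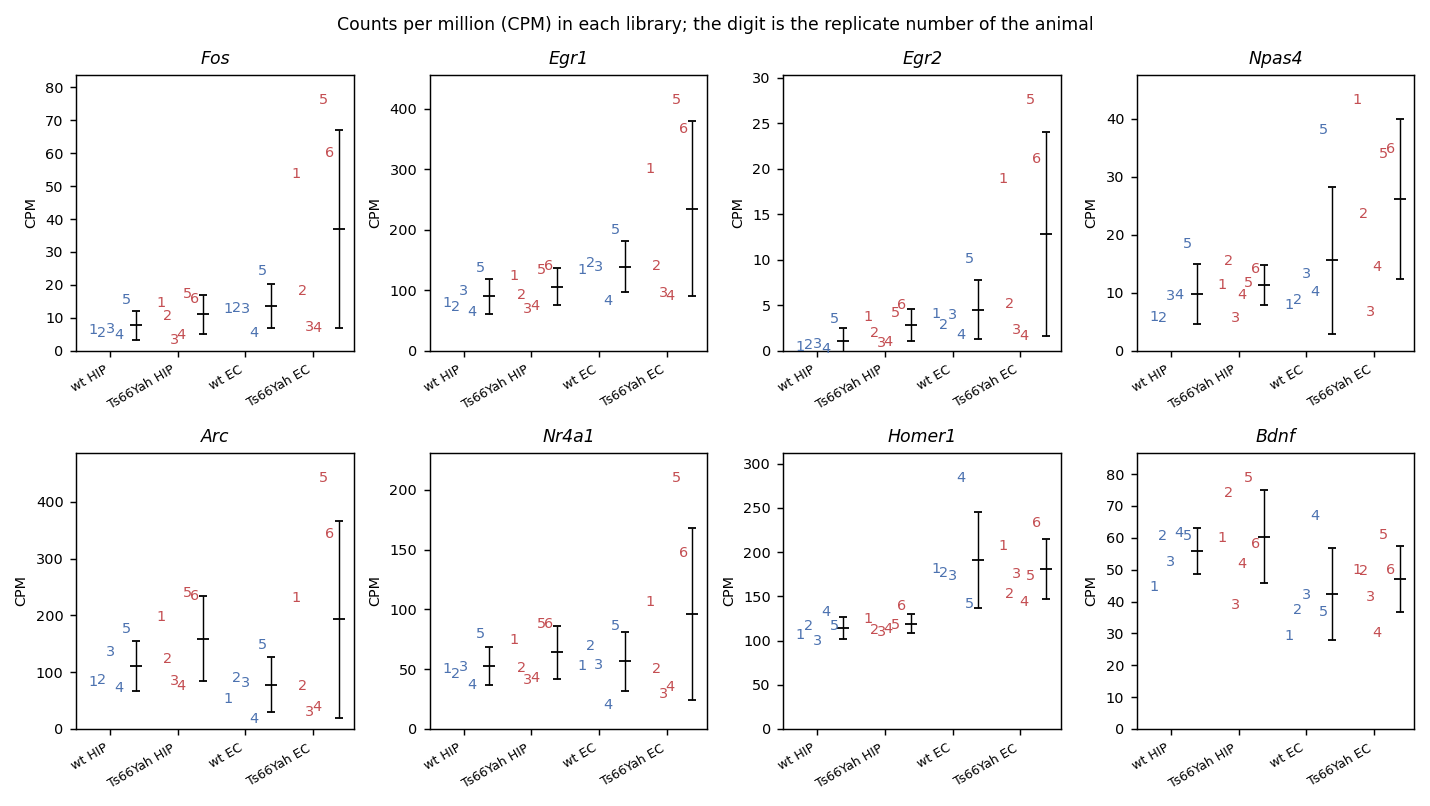
Levels of selected activity-regulated genes in each of the 22 libraries, in CPM on a linear axis. HIP and EC libraries of wt and Ts66Yah mice are set apart, with group means and bars of the standard deviation. Fos in Ts66Yah EC lies at 7.04 to 18.1 CPM in 3 libraries and at 53.6 to 76.3 CPM in the other 3.

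The first comparison was that of genotypes within HIP, tested with the quasi-likelihood test of edgeR (two-sided) and Benjamini-Hochberg adjustment over 18452 genes. None of the 32 members passed an adjusted p of 0.05, where 109 genes of the table did (0.591%). The unadjusted p was below 0.05 for 4 of 32 members and for 2188 genes in all (11.9%), a similar share. DESeq2 called 1 of 32 members, where it called 370 of 17297 genes. The log2 fold changes, given throughout as Ts66Yah minus wt, were above 0 for 20 members and below 0 for 12, with a median of 0.06 against 0.00 over all genes. Their absolute size had a median of 0.16, against 0.09 over all genes. The median over members rested on single mice, since it was 0.14 without wt replicate 5, 0.10 without Ts66Yah replicate 3 and between 0.03 and 0.04 without wt replicate 3 or Ts66Yah replicate 5 or 6.

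In HIP the largest fold change belonged to Egr2, at 1.31 ± 0.62 (log2, SE; adjusted p = 0.433 by edgeR), and at 2.36 without wt replicate 5, the wt library with 3.48 CPM. Arc differed by 0.53 ± 0.32 (adjusted p = 0.553) and Fos by 0.52 ± 0.41 (adjusted p = 0.669), and for both the 2 genotypes overlapped over most of their range. Gadd45g, a stress-induced protein linked to DNA demethylation, was at 7.39, 8.62, 14.4, 11.5 and 14.8 CPM in wt HIP and at 6.65 to 9.77 CPM (median 7.45) in Ts66Yah HIP, a log2 difference of -0.52 ± 0.17 with an adjusted p of 0.244. In EC Gadd45g was at 4.69, 4.48, 6.90, 3.84 and 16.0 CPM in wt and at 3.50 to 9.85 CPM (median 7.64) in Ts66Yah. Junb, an AP-1 subunit, was at 17.8, 15.6, 34.0, 22.8 and 60.8 CPM in wt HIP and at 14.0 to 33.8 CPM (median 21) in Ts66Yah HIP. Its log2 difference of -0.42 ± 0.33 (adjusted p = 0.675) went to 0.01 without wt replicate 5, the library with 60.8 CPM. Ptgs2 had the lowest adjusted p of the members in HIP, 0.198, with a log2 difference of 0.41 ± 0.12, and was the member that DESeq2 called, at an adjusted p of 0.049. The other 2 members of the 4 with an unadjusted p below 0.05 were Nr4a2 (-0.30 ± 0.12) and Jun (-0.26 ± 0.11).

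By role, the 14 transcription factors in HIP had a median log2 fold change of 0.00, with 7 above and 7 below 0. The 8 effectors had a median of 0.14 with 7 above 0, the 5 feedback regulators (4 DUSP phosphatases and the pseudokinase Trib1) one of 0.12 with all 5 above 0, and the 5 growth arrest and other early response genes one of -0.15 with 4 below 0. No role had a member past the threshold.

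In EC none of the 32 members passed the same test, where 50 of 17658 genes did (0.283%). Here 3 of 32 members had an unadjusted p below 0.05 (1103 genes in all, 6.25%), and DESeq2 and limma voom called none. The log2 fold change was above 0 for 27 of 32 members with a median of 0.39, while the median over all genes was 0.00 and 48.5% of genes were above 0. Without Ts66Yah replicate 6 the median of the members was 0.24, and over all mice left out in turn it ran from 0.24 to 0.50. Members moved together from mouse to mouse, so the 27 directions are not independent of each other.

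The largest EC fold changes were those of Egr2 at 1.49 ± 0.69 (log2, SE; edgeR adjusted p = 0.797), Fos at 1.44 ± 0.60 (adjusted p = 0.735) and Arc at 1.31 ± 0.68 (adjusted p = 0.855). Expressed as folds these are 2.81, 2.71 and 2.48, and none passed against the spread among mice. With limma voom the log2 values were 0.93 for Egr2 and 0.95 for Fos. Nr4a1 differed by 0.76 ± 0.49, Egr1 by 0.75 ± 0.39 and Npas4 by 0.74 ± 0.48, with adjusted p of 0.906, 0.853 and 0.906. Npas4 differed by 1.37 without wt replicate 5, the wt library with 38 CPM. The lowest adjusted p of the members in EC was 0.734, for Dusp4, a nuclear phosphatase of ERK, at 0.40 ± 0.16. Bdnf had smaller genotype differences, of 0.11 ± 0.15 in HIP and 0.14 ± 0.20 in EC (adjusted p = 0.828 and 0.975). The transcription factors had a median of 0.53 with 13 of 14 above 0, the feedback regulators one of 0.60 with 5 of 5 above 0, the growth arrest group one of 0.21 with 4 of 5 above 0 and the effectors one of 0.10 with 5 of 8 above 0.

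In neither region was there a member whose wt and Ts66Yah libraries did not overlap. Over all genes, 358 of 18452 (1.94%) were free of overlap in HIP and 159 of 17658 (0.9%) in EC. The interaction of genotype and region was not called for any of the 32 members or of the 19074 genes tested (0%), with 388 genes and 1 member at an unadjusted p below 0.05. That member was Jun, with a genotype difference of -0.26 ± 0.11 in HIP and 0.34 ± 0.17 in EC, and an interaction of 0.60 ± 0.22 whose adjusted p was 1.

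**Figure D2:**
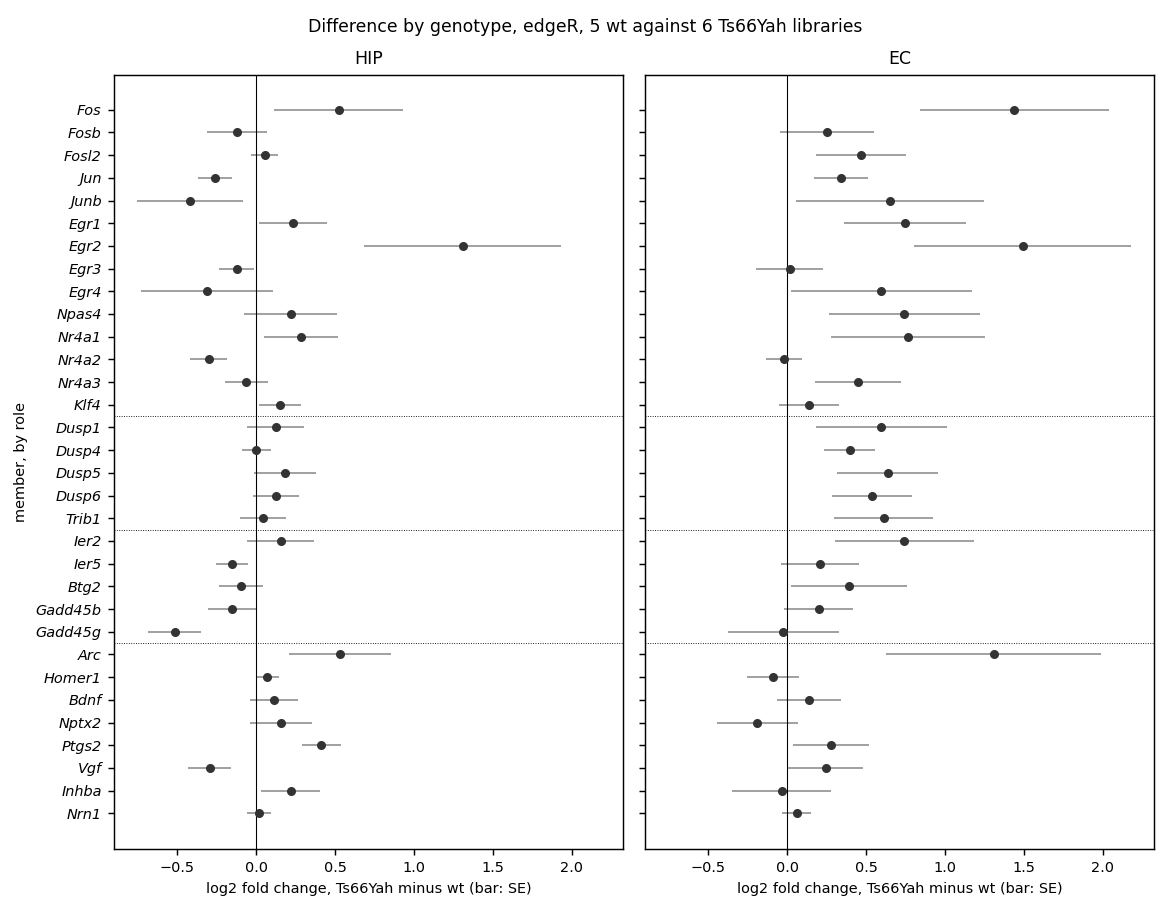
Log2 fold change of Ts66Yah over wt for the 32 activity-regulated genes in HIP and EC, with bars of 1 standard error from edgeR (5 wt and 6 Ts66Yah mice). In EC 27 of 32 points lie above 0 with wide bars, and no point passed an adjusted p of 0.05 in either region.

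The second comparison was that of regions, EC against HIP with genotype in the model and the regions of a mouse not paired. It was passed by 21 of 32 members (65.6%), where 63.7% of 19074 genes passed, so the share of members called was close to that of all genes. EC was higher for 14 members (31.1% of all genes) and HIP was higher for 7 (32.6% of all genes). The absolute log2 difference had a median of 0.68 over members and 0.30 over all genes. Of the 14 transcription factors, 8 were higher in EC and 3 in HIP. The effectors divided into 3 and 2 of 8, the feedback regulators into 2 and 2 of 5, and of the growth arrest group only Ier2, a nuclear protein of the early response, was called, higher in EC. With the mouse as a block, which pairs the regions, 25 of 32 members were called, where 68.1% of genes were. That fit kept all 21 and added Gadd45b (-0.31), Gadd45g (-0.49) and Inhba (-0.27), higher in HIP, and Nrn1 (0.13), higher in EC.

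Egr2 had the largest EC excess, with 2.01 ± 1.74 CPM in HIP and 9.01 ± 9.22 CPM in EC (SD, n = 11), a log2 difference of 2.11 ± 0.51 (edgeR adjusted p = 0.000971). Dusp1, the phosphatase that inactivates ERK, JNK and p38, was at 9.90, 10.2, 10.5, 8.57 and 16.5 CPM in wt HIP and at 8.34 to 15.1 CPM (median 12.5) in Ts66Yah HIP. In EC it was at 16.5, 28.0, 25.9, 11.1 and 40.3 CPM in wt and at 14.1 to 66.5 CPM (median 37.8) in Ts66Yah, a log2 difference of 1.38 ± 0.25 between the regions (adjusted p = 4.79e-05). Fos was higher in EC by 1.29 ± 0.40 (adjusted p = 0.00665). Nr4a2, a nuclear receptor also known as Nurr1 and a marker of deep cortical neurons, was at 43.7, 50.9, 43.5, 52.2 and 43.4 CPM in wt HIP and at 94.2, 100, 94.9, 99.5 and 81.7 CPM in wt EC. Its Ts66Yah libraries lay at 32 to 47.7 CPM in HIP (median 33.7) and at 78.5 to 129 CPM in EC (median 87.1), and the regions did not overlap. The log2 difference of Nr4a2 was 1.17 ± 0.09 (adjusted p = 5.33e-11). All 4 genes were higher in EC in 11 of 11 mice.

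In the opposite direction stood Nr4a3, the third receptor of the family, with 84.1, 72.4, 69.6, 102 and 113 CPM in wt HIP and 24.6, 23.9, 19.1, 20.4 and 19.7 CPM in wt EC. Its Ts66Yah libraries ran from 67.0 to 97.2 CPM in HIP (median 87.7) and from 18.0 to 54.8 CPM in EC (median 22.8). The regions differed by -1.76 ± 0.17 (edgeR adjusted p = 3.42e-09) and did not overlap. The 3 NR4A receptors, which bind the same DNA element, therefore had 3 different regional patterns: Nr4a2 higher in EC, Nr4a3 higher in HIP and Nr4a1 not called (0.35 ± 0.29).

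Dusp4 was at 18.8, 21, 24.8, 20.7 and 22.7 CPM in wt HIP against 8.73, 6.60, 8.25, 6.10 and 8.10 CPM in wt EC, and at 18.5 to 25.4 CPM (median 21.7) in Ts66Yah HIP against 7.97 to 13.1 CPM (median 8.71) in Ts66Yah EC. Its difference of -1.30 ± 0.10 had the lowest adjusted p of the members, 5.08e-11. Dusp5, a nuclear phosphatase specific for ERK, was at 12.8, 13.3, 18.0, 8.99 and 16.9 CPM in wt HIP and at 4.51, 7.43, 5.21, 3.71 and 6.00 CPM in wt EC. In the Ts66Yah mice Dusp5 ran from 11.0 to 21.8 CPM in HIP (median 14.7) and from 4.03 to 16.7 CPM in EC (median 7.38), and the regions differed by -1.14 ± 0.20 (adjusted p = 3.31e-05). So among the DUSP phosphatases Dusp1 was higher in EC, Dusp4 and Dusp5 were higher in HIP, and Dusp6, the cytoplasmic phosphatase of ERK, was not called (0.12 ± 0.16).

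Jun, the partner of FOS in AP-1, was at 71.2, 71.8, 89.5, 97.9 and 102 CPM in wt HIP and 30.1, 29.4, 50.4, 32.6 and 48.1 CPM in wt EC, with Ts66Yah ranges of 62.6 to 83.3 CPM in HIP (median 69.2) and 39.4 to 67.8 CPM in EC (median 45.3). The difference was -0.87 ± 0.11 (edgeR adjusted p = 3.51e-07) with HIP higher in 10 of 11 mice, and -0.57 in the Ts66Yah libraries alone. Fos and Jun thus differed between the regions in opposite directions. Ptgs2 (-0.72 ± 0.15, HIP higher in 11 of 11 mice), Fosl2 (-0.46 ± 0.16, in 9 of 11) and Bdnf (-0.37 ± 0.14, in 9 of 11) completed the members higher in HIP. Bdnf passed with an adjusted p of 0.0226 and no longer passed without wt replicate 2 (-0.34) or wt replicate 5 (-0.32).

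The other members higher in EC were Fosb, Egr1, Egr3, Egr4, Npas4, Homer1, Nptx2, Trib1, Vgf and Ier2, from 1.37-fold for Egr3 to 2.07-fold for Nptx2, a secreted pentraxin that clusters AMPA receptors. Of the 21 calls, 18 were kept when any single mouse was left out, and the exceptions were Bdnf, Egr4 and Ier2. Mice were left out only in the fit that does not pair the regions of a mouse. Egr4 was no longer called without wt replicate 2 or 3 or Ts66Yah replicate 2, 4, 5 or 6, and Ier2 without wt replicate 2, 3 or 5 or Ts66Yah replicate 5 or 6. In the wt libraries alone 15 of 32 members were called, where 47.7% of genes were. Bdnf, Egr4, Fos (0.83), Ier2, Npas4 (0.69), Trib1 and Vgf were no longer called there, and Gadd45b was. In the Ts66Yah libraries alone 19 of 32 members were called, where 54% of genes were, and Bdnf and Fosl2 were no longer called. Arc was not called between regions (-0.10 ± 0.40, HIP higher in 7 of 11 mice), and its difference turned to 0.28 in the Ts66Yah libraries.

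The third comparison asked whether the members differed from mouse to mouse within a genotype, using both regions of each mouse. The test compared mice of one genotype over HIP and EC together (edgeR quasi-likelihood F test, 9 degrees of freedom) against the disagreement between the regions of a mouse. It called 21 of 32 members (65.6%), where 1303 of 19074 genes were called (6.83%). The median F was 6.78 over members and 1.62 over all genes.

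Egr2 and Fos had the lowest adjusted p among the members, at 6.31e-05 and 0.000114 by edgeR. They were followed by Fosb (0.000768), Nptx2 (0.000911), Npas4 (0.0015) and Egr1 (0.00247). Of the transcription factors 9 of 14 were called, among them also Egr3, Egr4, Junb and Nr4a1. The 5 that were not called were Fosl2, Jun, Klf4, Nr4a2 and Nr4a3. The effectors called were Arc, Bdnf, Homer1, Inhba, Nptx2 and Nrn1 (6 of 8), where Homer1 is a postsynaptic scaffold and Inhba a subunit of activin. The feedback regulators called were Dusp1, Dusp5 and Dusp6 (3 of 5), and the growth arrest genes were Btg2, Gadd45b and Ier2 (3 of 5).

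With each mouse left out in turn, 14 of the 21 members kept their call throughout. Homer1 kept it in 3 of 11 cases. Btg2 lost its call without wt replicate 1, 3 or 5 or Ts66Yah replicate 2, Gadd45b without wt replicate 5 or Ts66Yah replicate 3, Bdnf without wt replicate 1 or Ts66Yah replicate 5, Egr4 and Ier2 without wt replicate 5, and Nrn1 without wt replicate 4. The animal numbers in the labels fell into a run of 6 mice (wt replicates 4 and 5 and Ts66Yah replicates 1 to 4), a run of 4 and a single mouse, and the sources used here do not say whether these are litters or cohorts. Within the run of 6 mice, 15 of 32 members were called against 308 of 19633 genes (1.57%), and Bdnf, Btg2, Egr3, Egr4, Gadd45b, Homer1 and Nrn1 were among those that were not. No run of numbers holds a whole genotype.

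The deviation of each library from its group mean, as a median over the 32 members on the log2 CPM scale, gave the mice that stood high and low. Among wt mice, replicate 5 was high in HIP (0.38, with 30 of 32 members above the group mean) and in EC (0.43, 27 of 32). Replicate 1 was low, at -0.20 in HIP and -0.25 in EC. Among Ts66Yah mice, replicate 5 was high in HIP (0.24, 28 of 32) and EC (0.63, 30 of 32), as were replicate 6 (0.16 and 0.58) and replicate 1 (0.21 and 0.23). Ts66Yah replicates 3 and 4 were low in both regions, with only 2 and 4 members above the mean in HIP and 1 and 4 in EC. Their medians were -0.32 and -0.26 in HIP and -0.63 and -0.62 in EC.

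A single mouse did not follow one pattern over all members. In EC, wt replicate 4 had the lowest level of its group for Fos, Egr1, Arc, Nr4a1 and Junb (7.07 CPM). The same library had the highest level of its group for Bdnf (67.0 CPM), for Homer1 (284 CPM), for Nptx2 (98.6 CPM), for Inhba (19.8 CPM) and for Nrn1 (187 CPM). In all it was the lowest wt EC library for 17 members and the highest for 8, which also included Egr3, Fosl2 and Ptgs2.

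**Figure D3:**
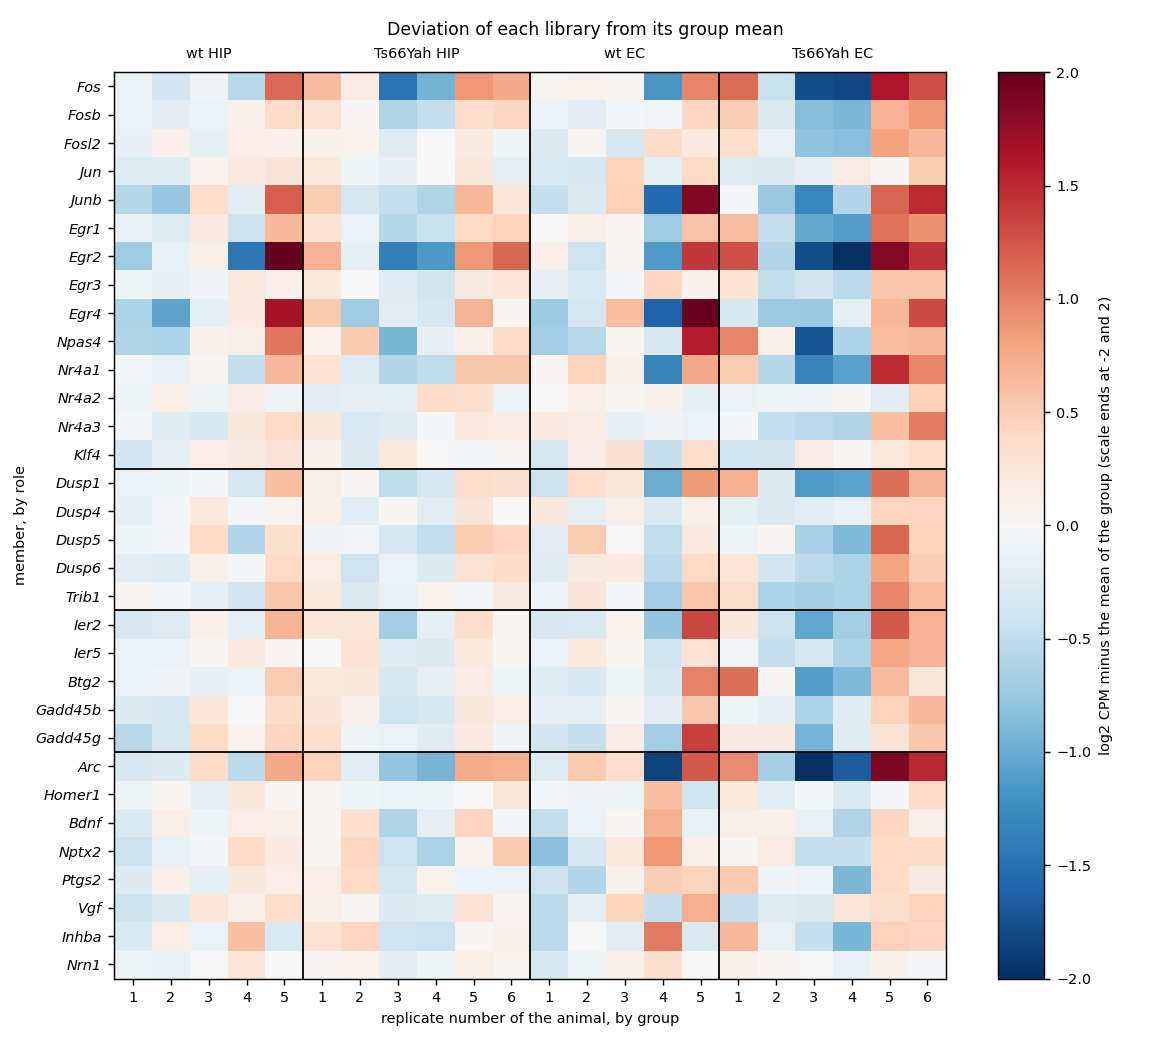
Deviation of each library from the mean of its genotype and region (log2 CPM) for the 32 activity-regulated genes, with libraries in columns and genes in rows. The columns of wt replicate 5 and Ts66Yah replicates 5 and 6 are high for most genes in both regions, and those of Ts66Yah replicates 3 and 4 are low.

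The HIP and EC deviations of a mouse were then correlated gene by gene over the 11 mice after removal of the genotype means. Pearson's r was above 0 for 31 of 32 members, against 13312 of 17232 genes, and above 0.5 for 25 members, against 4928 genes. The median r was 0.75 over members and 0.30 over all genes. With exact permutation of mice within genotype (86400 orders, two-sided, smallest possible p of 1.16e-05) and adjustment over the 17232 genes, 3 members were called, against 166 genes (0.963%). These were Dusp1, Fos and Fosb. With Spearman's rho none was called.

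Fosb had an r of 0.949 (rho 0.891, exact permutation p = 0.000116, adjusted 0.0332), and 0.843 without the 2 mice farthest from the HIP median. Fos had an r of 0.928 (rho 0.855, exact permutation p = 0.000127, adjusted 0.0332) and 0.954 without the farthest mice. Dusp1 had an r of 0.902 (rho 0.936, exact permutation p = 4.63e-05, adjusted 0.0302) and 0.928 without them. Nr4a1 (r 0.932, rho 0.936) and Arc (r 0.930, rho 0.9) were as high without passing, with adjusted permutation p of 0.0729 and 0.0540. Over all mice left out in turn the lowest r of Fos was 0.907, that of Fosb 0.934, that of Arc 0.915 and that of Nr4a1 0.913.

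Not all members were alike in this. Npas4 had an r of 0.866 that fell to 0.454 without the 2 farthest mice. Bdnf had an r of 0.578 (rho 0.655, adjusted exact permutation p = 0.340). Ptgs2 had the lowest r but one, 0.180, and -0.01 without the farthest mice. Nr4a2 had the lowest r, -0.06, but its rho was 0.236 and its r without the farthest mice 0.486. Without the 2 farthest mice, 19 members kept an r above 0.5. In the Ts66Yah mice alone (n = 6) the median r of the members was 0.734, and in the run of 6 mice by number it was 0.828. Since Fos in Ts66Yah EC left a gap between low and high mice, and neither side held 6 mice, no r could be given within each side.

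With both genotypes pooled, the spread among mice was larger in EC than in HIP for 31 of 32 members. The median ratio of standard deviations (log2 CPM) was 1.70. Over all genes the spread was larger in EC for 12381 of 17232, with a median ratio of 1.24. The exception was Nr4a2, at 0.935, and the ratio was highest for Fosl2, at 3.67. Arc had a standard deviation of 0.66 in HIP and 1.47 in EC, and Fos one of 0.85 and 1.27. The genotypes were not alike in this for every member. For example, the highest Egr2 library was 15.3-fold the lowest in wt HIP and 5.99-fold in wt EC. In Ts66Yah mice these ratios were 6.14 and 17.3. For Nr4a3 they were 1.63 and 1.29 in wt mice, and 1.45 and 3.05 in Ts66Yah mice.

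**Figure D4:**
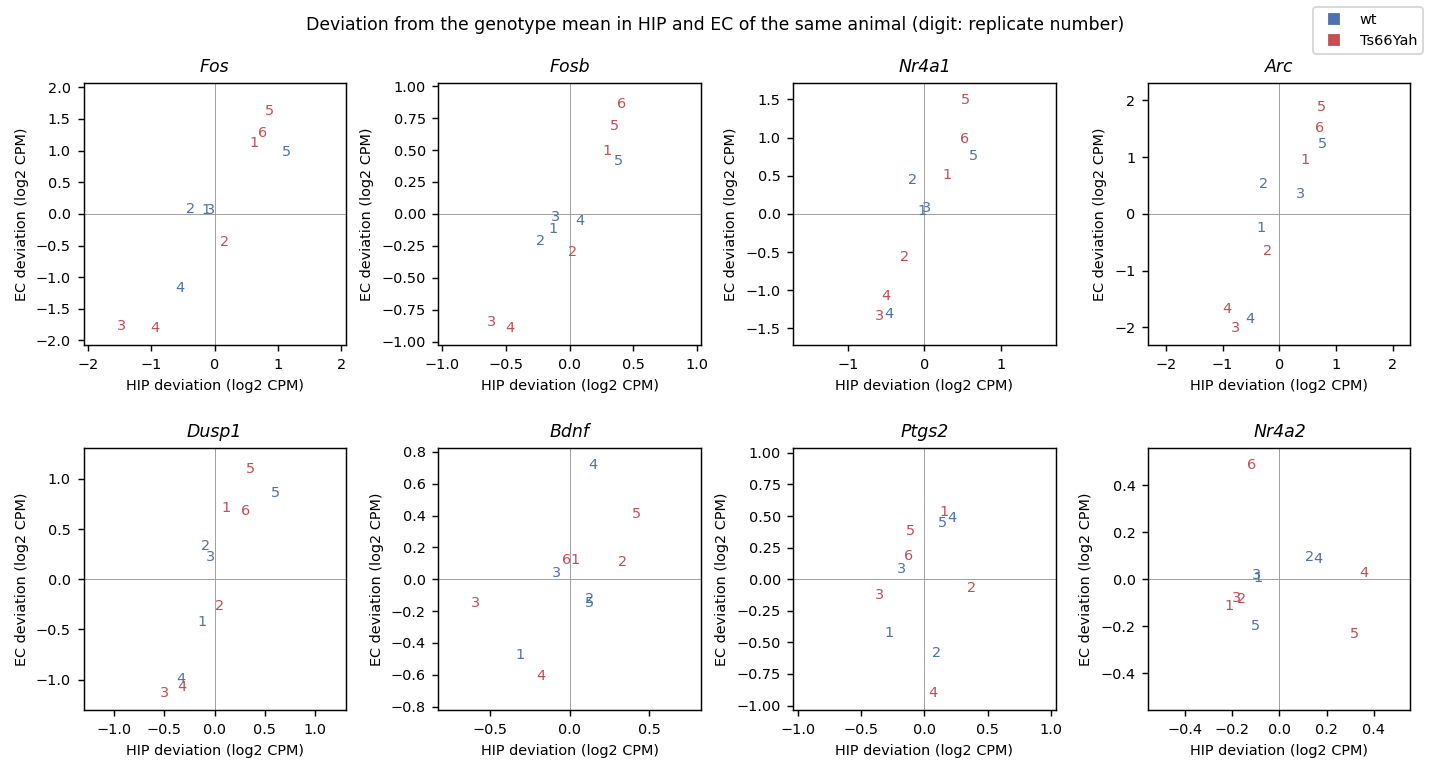
HIP against EC deviation from the genotype mean (log2 CPM) for selected activity-regulated genes, with 1 point per mouse and wt and Ts66Yah mice in different colors. Points of Fos, Fosb and Dusp1 lie along a rising line (r of 0.928, 0.949 and 0.902), and those of Nr4a2 do not (r of -0.06).

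Within a region, the members were compared with Fos across libraries. The r with Fos had a median of 0.66 over the other 31 members in HIP and 0.80 in EC. It was above 0.5 for 23 of 31 members in HIP, against 6.18% of all genes, and for 22 of 31 in EC, against 11.6%. No gene passed the adjusted exact permutation test with Fos in HIP (0 of 18451, 0%) or in EC (0 of 17657, 0%). At an unadjusted p below 0.05 there were 827 and 2202 genes. The smallest p this permutation test can give is 1.16e-05. Nr4a1 in HIP had that p, and its adjusted permutation p was still 0.214. A gene could therefore pass only together with several others at such a p, so the lack of calls does not measure how closely single members followed Fos. Over all pairs of members the median r was 0.54 in HIP and 0.58 in EC.

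All 14373 genes whose mean level reached 1 CPM were ranked by the smaller of their r with Fos in the 2 regions, over 11 libraries each. Dusp1 came first (0.965 in HIP and 0.965 in EC), followed by Egr1 (0.947 and 0.993), Nr4a1 (0.941 and 0.964) and Fosb (0.942 and 0.936). Arc (0.929 and 0.976) and Egr2 (0.918 and 0.987) were sixth and seventh. Of the first 20 genes 11 were members, and of the first 50 genes 13. The 5 genes outside the list with the highest ranks were Csrnp1, a nuclear protein of the early response (0.932 and 0.959), Gm14168, an unnamed gene model (0.861 and 0.908), Spag4, a protein of the nuclear envelope (0.895 and 0.847), Klf10, a zinc finger factor (0.910 and 0.847), and Frat2, a regulator of GSK3 (0.826 and 0.851).

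For some members the r with Fos was near 0 in at least 1 region. Nr4a2 had an r of -0.17 in HIP and -0.02 in EC, and Klf4 one of 0.00 and 0.27. Homer1 (0.32 and 0.07), Nrn1 (0.51 and 0.03), Bdnf (0.65 and 0.28) and Nptx2 (0.61 and 0.30) had a lower r in EC than in HIP. The converse held for Trib1 (0.56 and 0.94), a pseudokinase that scaffolds protein degradation, and Fosl2 (0.47 and 0.81). Differences of r between regions were not tested. The EC values of Homer1, Nrn1, Bdnf and Nptx2 include wt replicate 4, whose Fos deviation from the group mean was -1.17. In that library these genes deviated upward, by 0.61, 0.32, 0.72 and 0.87. How far this 1 library lowers their EC r was not tested.

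**Figure D5:**
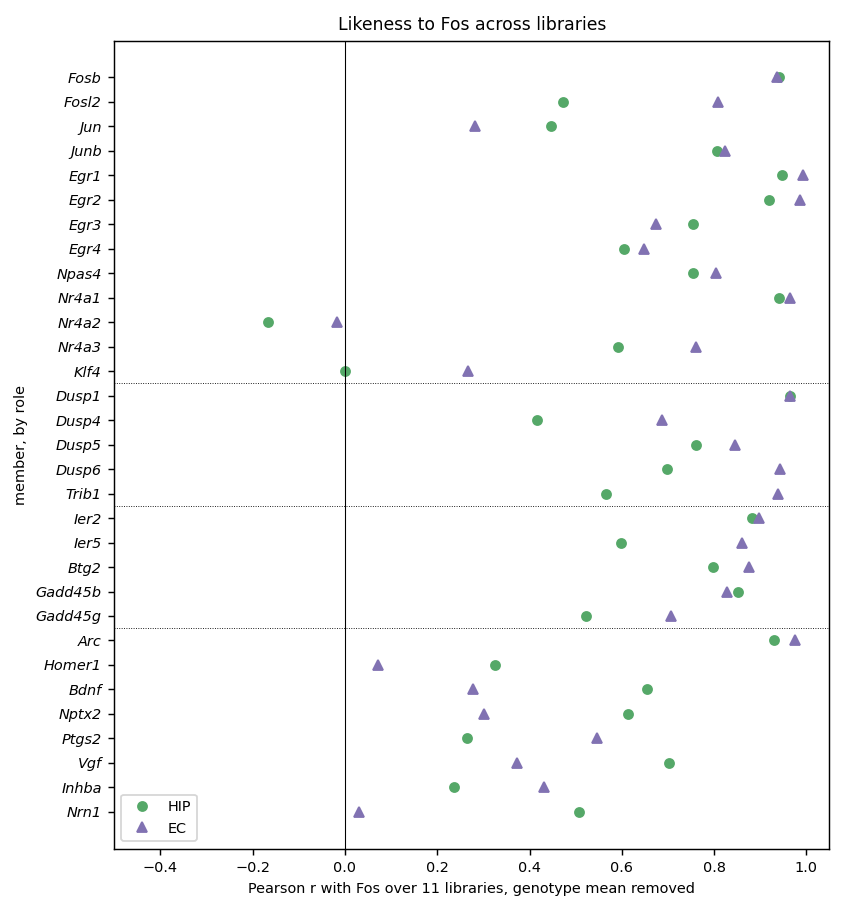
Pearson's r with Fos (x axis) for the other 31 activity-regulated genes, with 1 row per gene. Circles give r across the 11 libraries of HIP and triangles that across the 11 libraries of EC, after removal of the genotype means. Both marks of Dusp1, Egr1, Nr4a1, Fosb, Arc and Egr2 lie at the right, with an r above 0.9, and both marks of Nr4a2 lie near 0.

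The pathway around the members was read from 2 written lists. The upstream list held 40 genes, all tested, for glutamate receptors, calcium channels, kinases and the factors CREB and SRF. None of them was called by genotype in HIP or EC. By region 31 of 40 (77.5%) were called, against 63.7% of all genes, and by mouse 1 of 40 (2.5%), against 6.83%. That gene was Crem, a CREB relative with an inducible repressor form, named here because it was the only one. Of the second list, 48 further activity-regulated genes outside the set, 47 were tested. None was called by genotype, 37 of 47 had a log2 fold change above 0 in EC with a median of 0.10, 26 were higher in EC and 9 in HIP (74.5% called by region), and 18 of 47 (38.3%) were called by mouse.

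Marker lists of 14 cell types and tissues were measured beside the members. No gene of these lists was called by genotype in either region. By mouse, 3 of 7 clock output genes, 2 of 5 genes each of the choroid plexus, blood and endothelial lists and 1 of 6 inhibitory neuron genes were called, and none of the other 9 lists. Across the libraries of a region the summed level of each list, the total count and the mitochondrial share were correlated with Fos, in 36 relations with exact permutation tests. In EC, Fos had its highest r with the cortex list (r 0.853, rho 0.873, exact permutation p = 0.00609, adjusted 0.219, and r 0.857 without the 2 farthest libraries) and its lowest with the meninges list (r -0.81, rho -0.83, adjusted exact permutation p = 0.405, and r -0.55 without them). The cortex list summed to 529 to 652 CPM in wt EC and 480 to 750 CPM in Ts66Yah EC, and the meninges list to 46.5 to 82.2 and 39.0 to 98.3 CPM, with no gene of either list at 0 over a group. No relation passed the adjustment. The part of tissue composition in the spread of Fos in EC was not tested. The clock output list had an r with Fos of -0.53 in HIP and 0.33 in EC. Total count had one of 0.03 in HIP and -0.39 in EC, and the mitochondrial share one of 0.09 and 0.43.

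Several members share their place in the genome with another gene. Junb overlaps Prdx2, an abundant peroxiredoxin gene on the opposite strand with 142027 counts over all libraries against 24185 for Junb. Jun overlaps the antisense gene Junos (434 counts against 48091), Nrn1 overlaps Fars2 and Gm30177, and Inhba overlaps B230303A05Rik (7161 counts against 8690). Dusp1, in a gene model that extends far upstream, overlaps Ergic1, a protein-coding gene on the opposite strand with 107435 counts against 16092 for Dusp1. Dusp1, Dusp5, Homer1 and Bdnf also overlap gene models with 6 to 82 counts. The kit marked the strand, but the strand setting of the counting is not given in the sources used here, so reads in these stretches may be shared.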

How the data were processed

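RNA from HIP and EC of 5 wt and 6 Ts66Yah male mice was sequenced by the authors as single-end reads, aligned with Hisat2 to GRCm38 (mm10 in the submitters' processing notes) and counted per gene with HTSeq-count. The deposited counts are raw reads per gene, and 55144 of 55385 identifiers matched GENCODE M21. The labels name poly(A) selection, and the methods name both poly(A) RNA and a ribosomal RNA depletion kit, and the counts alone do not settle which was used. Deposited tables of the authors' own comparisons (log2 fold change, p-values, scores) were not used, and 0 columns of samples were left unmapped.

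Groups came from the labels, and the replicate number names a mouse in both regions. HIP and EC deviations of one mouse correlated at 0.215 to 0.538 over genes, so the regions are paired by mouse. No 2 libraries of a group agreed within sampling noise (chi-square per gene of at least 10.57). The members and lists were chosen with earlier results of these data known. Tests were edgeR 4.0.16 quasi-likelihood fits (TMM, filterByExpr, Benjamini-Hochberg over all genes tested, threshold 0.05), for genotype within each region, for region with genotype, for their interaction, and for mouse within genotype (9 degrees of freedom). Correlations used log2 CPM (prior count 2) with genotype means removed and exact permutation of mice within genotype. Alternatives were DESeq2 1.42.0, limma 3.58.1 voom, RLE factors, other count filters, a replicate block, single genotypes and each mouse left out. R 4.3.3, Python 3.11.15 and scipy 1.17.1 were used, and scripts were tested on simulated data. Libraries held 25900479 to 50105778 counts. Values in every wt library, with all Ts66Yah libraries or their lowest, median and highest, are given for members called by genotype, the 5 with the largest genotype fold change per region, Fos, Arc, Egr1, Npas4 and Bdnf, the 4 highest called in each direction by region, and those with the 3 highest and 2 lowest HIP to EC correlations. App, Dyrk1a, Sod1 and Crem were named after their values were seen. GENCODE exon lengths gave levels per kb.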

Additional observations from a re-analysis of the deposited data

Results flagged for a closer look

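In 4 of the 128 combinations of member and group, 1 library stood apart from the rest by Dixon's criterion on the log2 CPM scale (3.12%, where chance gives about 5%). Fos in wt HIP was highest in replicate 5, at 15.4 CPM, with a gap to the next library of 0.714 of the range of its group in log2 CPM. The gaps that follow are on the same scale. Btg2, an antiproliferative early response gene, was highest in the same mouse in both regions, at 26.7 CPM in wt HIP (gap 0.851 of the range) and 37.5 CPM in wt EC (gap 0.827). The highest Nr4a2 level in Ts66Yah EC, 129 CPM, belonged to replicate 6 (gap 0.64 of the range). The wt replicate 5 mouse was also the highest wt mouse for Egr2 and Npas4 in both regions.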

How the results depend on the processing

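The members called by genotype numbered 0 in HIP and EC under every alternative run, except 1 in HIP with DESeq2 (Ptgs2). DESeq2 called 370 of 17297 genes by genotype in HIP and 109 of 17967 in EC. With edgeR these were 109 of 18452 and 50 of 17658. Replicate numbers did not pair wt with Ts66Yah mice (correlations of deviations from -0.01 to 0.0607 in HIP and 0.0188 to 0.193 in EC). With the number as a replicate block, 0 members were called in both regions (61 and 39 genes), with median log2 fold changes of 0.03 and 0.24. With mouse as a replicate block, 25 members were called by region (68.1% of genes, 63.7% without the block) and 0 by the interaction. Correlations of HIP with EC were called for 3 members with Pearson's r, 0 with Spearman's rho, and 0 to 0 with a mouse left out, where fewer orders exist by construction and the smallest possible p rises to 5.79e-05 or 6.94e-05. In the other direction from the values reported were Junb by genotype in HIP without wt replicate 5 (0.005971, with a range of -0.5835 to 0.005971 over all mice left out in turn), Arc by region in the Ts66Yah libraries (0.28), Ptgs2 between regions without the 2 farthest mice (-0.0094), and Nr4a2 between regions with rho (0.236), without the 2 farthest mice (0.486) and in the run of 6 mice by animal number (0.752). The cause was not tested. Further alternatives that moved a named value were 6 for fold changes (Bdnf, Fos and Npas4 by region) and 4 for correlations (Npas4 0.454, Bdnf 0.332 in the same run, and the lost calls of Fos and Fosb with rho), and 505 and 19 kept their direction and side of the threshold. The restriction to animal numbers was chosen after seeing the data. Depth limits Egr2, Ier2 and Klf4 most, the members with the fewest counts.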
